A study of Mus musculus with 18 samples.

Results

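The nuclear genes for the subunits of the oxidative phosphorylation machinery were followed in mouse bone marrow-derived dendritic cells through 24 h of lipopolysaccharide (LPS), which is part of the outer membrane of bacteria and is recognised by TLR4 with the help of CD14. The members were chosen by symbol alone: Ndufa, Ndufb, Ndufc, Ndufs or Ndufv with a digit, Uqcr, Cox4 to Cox8, Atp5, and Cyc1. This gave 75 genes of the 12394 genes that could be named on the array, namely 32 of complex I, 9 of complex III, 17 of complex IV and 17 of complex V. Ndufa4, first described in complex I, is counted with complex IV, where it is now placed. Complex II, whose genes carry other names, was followed as a separate list.

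The 3 conditions were Cd14-/- C57BL/6 cells given smooth LPS, C57BL/6 wild type cells given smooth LPS at 1 µg/ml with the calcium chelator EGTA at 2 mM, and C57BL/6 wild type cells given smooth LPS at 1 µg/ml alone. No LPS concentration is stated for the Cd14-/- cells. Mice were 6 to 8 weeks old, and marrow from all of them was grown for 7 to 10 days with supernatant of B16 melanoma cells that secrete GM-CSF, until over 90% of the cells carried CD11c. There were 18 arrays, 1 per condition and time, at 0 (no LPS), 2, 4, 6, 12 and 24 h. Unstimulated cells were harvested 24 h after plating, so the 24 h LPS arrays are those that can be set beside them at a like time since plating. Whether EGTA was present on the unstimulated EGTA array is unclear, since the title names it and the protocol does not. No label says that arrays came from separate cultures or animals. The p-values rest on the scatter of differences between times or between conditions, each read from a single array. That scatter mixes technical spread with any real difference in response, and it is not known to hold any spread between animals.

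Oxidative phosphorylation makes most of the ATP of a resting cell. Complex I takes electrons from NADH and complex II takes them from succinate, coenzyme Q passes them to complex III, cytochrome c passes them to complex IV, which reduces oxygen, and complex V (ATP synthase) uses the proton gradient built on the way. Dendritic cells and macrophages given LPS are known to turn towards glycolysis. In those that make nitric oxide the gas blocks complex IV, and the itaconate made by Acod1 inhibits complex II.

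Transcription of these nuclear genes is known to be driven in large part by NRF1, by the ETS-family factor GABP (also called NRF2) and by YY1, so the promoters of members that carried the results below are shown. RefSeq promoters of assembly GRCm38.p6, from 250 bases before to 50 bases after the transcription start, could be matched to 61 of the 75 members, which had 66 promoters. They are printed 5′ to 3′ on the strand of the gene, with matches on either strand to GCGCA and GCGC with 1 base of any kind between them (NRF1), CCGGAAG (ETS) or AAGATGGCG (YY1) in capitals. None of the 3 patterns contains another. Ndufb10 and Ndufa8 had the largest mean falls after LPS, Ndufb1 the largest rise, Ndufs7 the largest late rise, Cox7a2l the largest difference with EGTA, and Atp5h was higher in Cd14-/- cells at all 5 times.
Ndufb10, chr17:24724374-24724673, minus strand: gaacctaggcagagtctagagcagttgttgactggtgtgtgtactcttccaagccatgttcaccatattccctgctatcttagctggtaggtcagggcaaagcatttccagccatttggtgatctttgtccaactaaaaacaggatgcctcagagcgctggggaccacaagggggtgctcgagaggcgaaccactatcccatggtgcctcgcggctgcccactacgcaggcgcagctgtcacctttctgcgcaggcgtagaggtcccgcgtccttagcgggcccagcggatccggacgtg
Ndufa8, chr2:36049289-36049588, minus strand: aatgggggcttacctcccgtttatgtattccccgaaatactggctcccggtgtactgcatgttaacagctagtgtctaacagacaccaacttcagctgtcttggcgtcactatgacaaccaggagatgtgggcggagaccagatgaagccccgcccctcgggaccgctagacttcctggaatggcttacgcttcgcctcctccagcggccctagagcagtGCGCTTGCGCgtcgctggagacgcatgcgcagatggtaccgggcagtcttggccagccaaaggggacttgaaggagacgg
Ndufb1, chr12:101975689-101975988, minus strand: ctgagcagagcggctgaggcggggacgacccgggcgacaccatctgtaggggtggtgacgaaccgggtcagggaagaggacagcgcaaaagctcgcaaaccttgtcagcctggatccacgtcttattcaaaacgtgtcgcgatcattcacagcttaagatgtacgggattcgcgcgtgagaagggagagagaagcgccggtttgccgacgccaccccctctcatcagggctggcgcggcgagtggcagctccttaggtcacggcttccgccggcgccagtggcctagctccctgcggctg
Ndufs7, chr10:80249199-80249498, plus strand: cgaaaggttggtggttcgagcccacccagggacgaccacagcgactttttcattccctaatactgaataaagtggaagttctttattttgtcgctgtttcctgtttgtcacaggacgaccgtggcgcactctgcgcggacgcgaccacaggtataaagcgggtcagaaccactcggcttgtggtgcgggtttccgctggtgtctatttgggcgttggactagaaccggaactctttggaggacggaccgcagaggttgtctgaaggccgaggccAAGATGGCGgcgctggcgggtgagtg
Cox7a2l, chr17:83514284-83514583, minus strand: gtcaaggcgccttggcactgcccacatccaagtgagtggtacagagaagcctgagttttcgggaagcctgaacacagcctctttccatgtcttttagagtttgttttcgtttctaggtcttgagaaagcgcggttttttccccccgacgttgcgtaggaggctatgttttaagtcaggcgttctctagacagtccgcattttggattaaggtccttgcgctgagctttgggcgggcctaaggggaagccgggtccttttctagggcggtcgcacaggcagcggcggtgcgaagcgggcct
Atp5h, chr11:115419870-115420169, minus strand: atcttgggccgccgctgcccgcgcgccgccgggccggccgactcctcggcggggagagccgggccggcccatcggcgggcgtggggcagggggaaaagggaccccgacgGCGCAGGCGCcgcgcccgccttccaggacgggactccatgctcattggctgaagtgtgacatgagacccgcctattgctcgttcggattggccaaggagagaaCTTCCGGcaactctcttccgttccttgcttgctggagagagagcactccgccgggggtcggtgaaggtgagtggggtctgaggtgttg
Ndufa8 held 1 NRF1 match, Ndufs7 held 1 YY1 match, and Atp5h held 1 NRF1 and 1 ETS match, while these windows of Ndufb10, Ndufb1 and Cox7a2l held none of the 3 patterns. Of the 61 member genes, 12 held the NRF1 pattern (19.7%, against 5.19% of 27025 genes with promoters of this length), 15 the ETS pattern (24.6% against 9.93%) and 6 the YY1 pattern (9.84% against 1.64%). At least 1 pattern was found in 29 members. The NRF1 pattern was in 6 of 15 complex V genes (40.0%) and in 4 of 29 complex I genes (13.8%). A match describes letters and not a site in use.

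Levels below are log2 of the deposited intensity plus 16 after quantile normalisation between arrays, and changes are differences of such levels. A gene was read from its brightest probe set, and it was tested if it lay above the median of its array on at least 2 of the arrays fitted. Of the members 69 passed, and 6, all in complex IV, did not. The direction of many changes depended on how the arrays were scaled, so counts are also given after centring each array on its median and with no further scaling. The median change of all 7056 tested genes with LPS was -0.05 on the quantile scale, 0.09 with median centring and -0.32 with no further scaling, and changes of the members are read against those values.

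Levels of Cd14 matched the genotype labels of the arrays, while the EGTA label was not checked. Cd14 lay between 4.28 and 5.83 on the Cd14-/- arrays and at 12.49 or higher on all others. Of 10 dendritic cell markers 8 lay above the median of all 18 arrays, and so did 8 of 9 macrophage and 5 of 9 granulocyte markers and 1 each of the mast cell and erythroid markers. None of the B cell, T and NK cell or melanoma markers did so. Deposited median intensity ran from 77.9 to 126.7, signal of actin's 3' probes over its 5' probes lay between 1.05 and 1.19, and no 2 arrays of 153 pairs held identical values. The unstimulated EGTA array stood apart, with 3311 probe sets under an intensity of 16 against 4635 to 5570 on the others. The RNA integrity number was 8.8 and 8.7 for EGTA cells at 12 and 24 h and 9.3 to 10 elsewhere.

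After LPS most subunit genes were lower than in unstimulated cells on the quantile scale, and their median change lay below that of all genes. The median level of the 69 members stood at 11.32 without LPS and 11.20, 11.10, 10.94, 10.97 and 11.15 at 2, 4, 6, 12 and 24 h in Cd14-/- cells. It stood at 11.41 and then 11.17, 11.05, 10.86, 10.88 and 11.01 in EGTA cells, and at 11.45 and then 11.16, 10.94, 10.83, 10.82 and 10.91 in wild type cells. In every condition the members' median was highest without LPS, lowest at 6 or 12 h, and partly back at 24 h. Averaged over the 5 times, 62 of 69 members fell and 2 rose (limma, adjusted p under 0.05), where 34.7% of all tested genes fell and 27.3% rose. The median change was -0.33. In bulk samples fewer cells of a type and less RNA per cell cannot be told apart.

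The size of this fall hung on the scaling between arrays. With median centring 11 members fell and 8 rose, where 21.5% of all genes fell and 34.6% rose, so members passed as lower less often than genes at large, and their median was -0.01. Without the unstimulated EGTA array that scaling gave 29 lower and 3 higher (all genes 26.4% and 27.9%). With no further scaling 62 fell and 1 rose, with a median of -0.42, where 52.5% of all genes fell and 13.1% rose. Set against the median change of all genes on the same scale, 65 of 69 members lay below it on the quantile scale and 51 of 69 under either other scaling. The gap between the members' median and that of all genes was -0.28 on the quantile scale and -0.10 under the others. By time the gap was -0.07, -0.24, -0.34, -0.41 and -0.27 at 2, 4, 6, 12 and 24 h on the quantile scale. Under the other scalings it was 0.13, -0.06, -0.17, -0.28 and -0.18. At 2 h the sign of the gap therefore turned with the scaling. From 4 h on the members' median lay below that of all genes under all 3 scalings, most so at 12 h. At 4 h 28 of 69 members still lay above the median of all genes under the other scalings. Median centring shifts all genes of an array by a single constant. These gaps and the counts against the median of all genes are therefore the same by construction with median centring and with no further scaling.

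**Figure D1:**
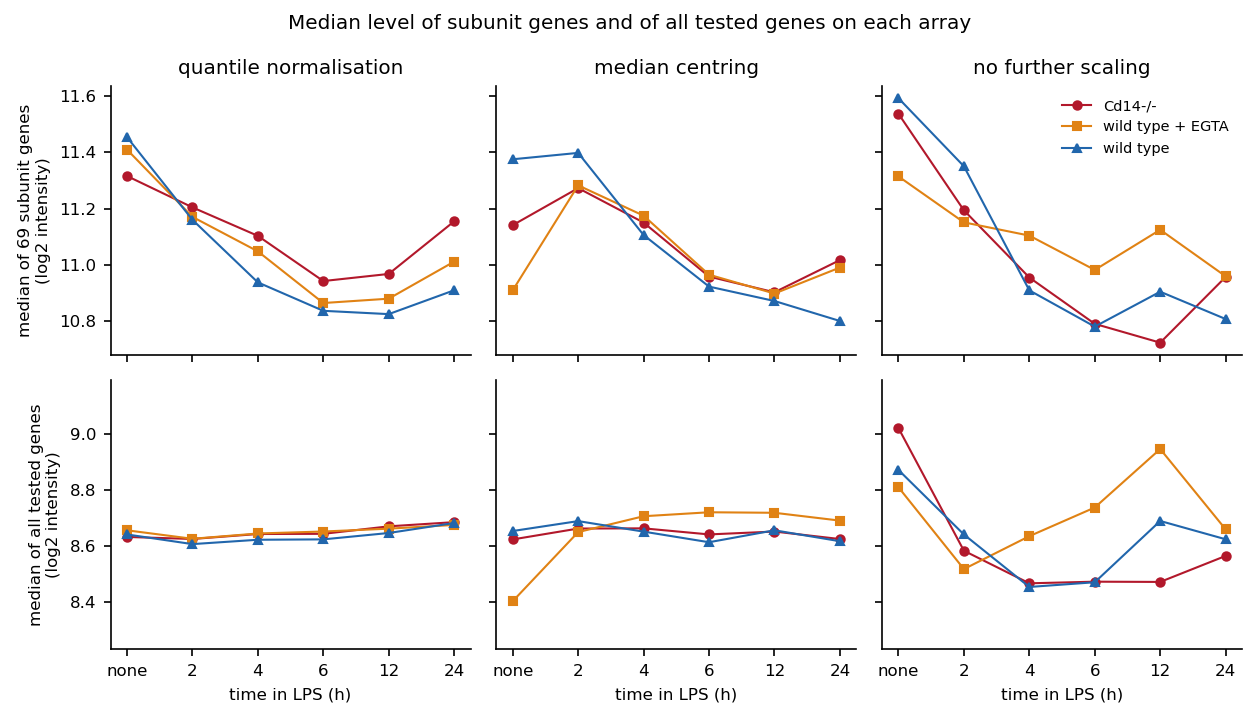
Median log2 level of the 69 members (top row) and of all tested genes (bottom row) at 0, 2, 4, 6, 12 and 24 h of LPS in Cd14-/- (red circles), EGTA (orange squares) and wild type cells (blue triangles), 1 array per point, under 3 scalings. On the quantile scale the member median was highest without LPS in all 3 conditions (11.32, 11.41 and 11.45) and lowest at 6 or 12 h; under the other scalings the bottom row moves as well, so the members are read against it.

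Complex I, the NADH dehydrogenase, had the lowest median change of the 4 complexes under all 3 scalings. Median centring and no further scaling rank complexes alike by construction, and the difference of complex I from the others was not tested. Of its 32 genes 29 fell and 1 rose with LPS on the quantile scale (median -0.39), against 7 lower and 2 higher with median centring and 30 lower and 1 higher with no further scaling. Ndufb10, an accessory subunit of the membrane arm, was at 10.66, 10.23, 10.08, 9.61, 9.53 and 9.92 from 0 to 24 h in Cd14-/- cells. It was at 10.57, 10.29, 9.93, 9.71, 9.67 and 9.80 in EGTA cells and at 10.67, 10.25, 9.88, 9.70, 9.64 and 9.61 in wild type cells. The 3 unstimulated arrays were above all 15 LPS arrays. The mean change of Ndufb10 was -0.78 ± 0.07 (SE, limma adjusted p = 8.6e-08, lower in 3 of 3 conditions), a 1.72-fold lower level, and it was -0.52 with median centring and -0.93 with no further scaling. In the deposited intensities Ndufb10 was at 612.8 at 12 h against 1903 without LPS in Cd14-/- cells, 967.4 against 1466 in EGTA cells and 811.1 against 1790.1 in wild type cells.

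Ndufa8, another accessory subunit of the membrane arm, fell early and came part of the way back. It was at 10.87, 10.41, 10.01, 10.01, 10.31 and 10.45 in Cd14-/- cells, at 10.94, 10.38, 9.92, 9.81, 10.01 and 10.54 in EGTA cells, and at 10.83, 10.37, 9.99, 9.66, 9.92 and 10.34 in wild type cells. Again no LPS array reached an unstimulated one. The mean change of Ndufa8 was -0.74 ± 0.07 (adjusted p = 2e-07). Ndufv3, an accessory subunit of the NADH-binding module, instead went on falling: it was at 11.67, 11.73, 11.38, 11.07, 10.97 and 11.07 in Cd14-/- cells, at 11.72, 11.52, 11.15, 10.96, 10.73 and 10.70 in EGTA cells, and at 11.86, 11.41, 11.17, 11.08, 10.69 and 10.71 in wild type cells. Its mean change was -0.66 ± 0.07 (adjusted p = 8.5e-07), and it was lowest at 12 or 24 h in each condition. In Cd14-/- cells the 2 h level of Ndufv3 was not below the unstimulated one.

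All 6 core subunits of complex I among the members fell on the quantile scale in the mean over times and conditions, with a median of -0.47. They include the carriers of the flavin and the iron-sulfur clusters. They are Ndufv1 (-0.45), Ndufv2 (-0.50), Ndufs1 (-0.36), Ndufs3 (-0.21), Ndufs7 (-0.50) and Ndufs8 (-0.66), named here after their values were seen. Ndufs8 was the least even of them. It was at 11.57 without LPS and between 10.60 and 11.07 after it in Cd14-/- cells, at 10.87 and then 10.52 to 11.17 in EGTA cells, and at 11.56 and then 9.98 to 11.003 in wild type cells. The EGTA arrays with and without LPS therefore overlapped for Ndufs8, and its other probe sets gave mean changes from -0.49 to 0.25 against -0.66 ± 0.15 for the brightest. Ndufs3 did not fall throughout in EGTA cells, where it changed by -0.04, -0.12, 0.09, 0.11 and 0.47 from 2 to 24 h. Of the accessory subunits 23 of 26 fell and 1 rose, among the falls Ndufc1 (-0.58 ± 0.09) and Ndufb11 (-0.56 ± 0.05), both of the membrane arm.

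Ndufb1, a small accessory subunit of the membrane arm, ran against its complex. It was at 9.01, 9.64, 9.90, 9.81, 9.48 and 9.14 in Cd14-/- cells, at 9.04, 9.68, 9.80, 9.79, 9.47 and 9.21 in EGTA cells, and at 8.71, 9.71, 9.87, 9.94, 9.49 and 9.07 in wild type cells. On the quantile scale every LPS array was above the 3 unstimulated ones, with the highest levels at 4 or 6 h and most of the rise gone at 24 h. In the deposited intensities of Cd14-/- cells Ndufb1 was at 641.0 without LPS, above 591.8 at 12 h and 497.6 at 24 h. The mean change of Ndufb1 was 0.68 ± 0.07 (adjusted p = 6.2e-07, higher in 3 of 3 conditions), 0.83 with median centring and 0.42 with no further scaling. It rests on 1 probe set. Ndufs4, an accessory subunit whose loss in mice gives a Leigh-like disease, had a mean change of 0.13 that did not pass the test.

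**Figure D2:**
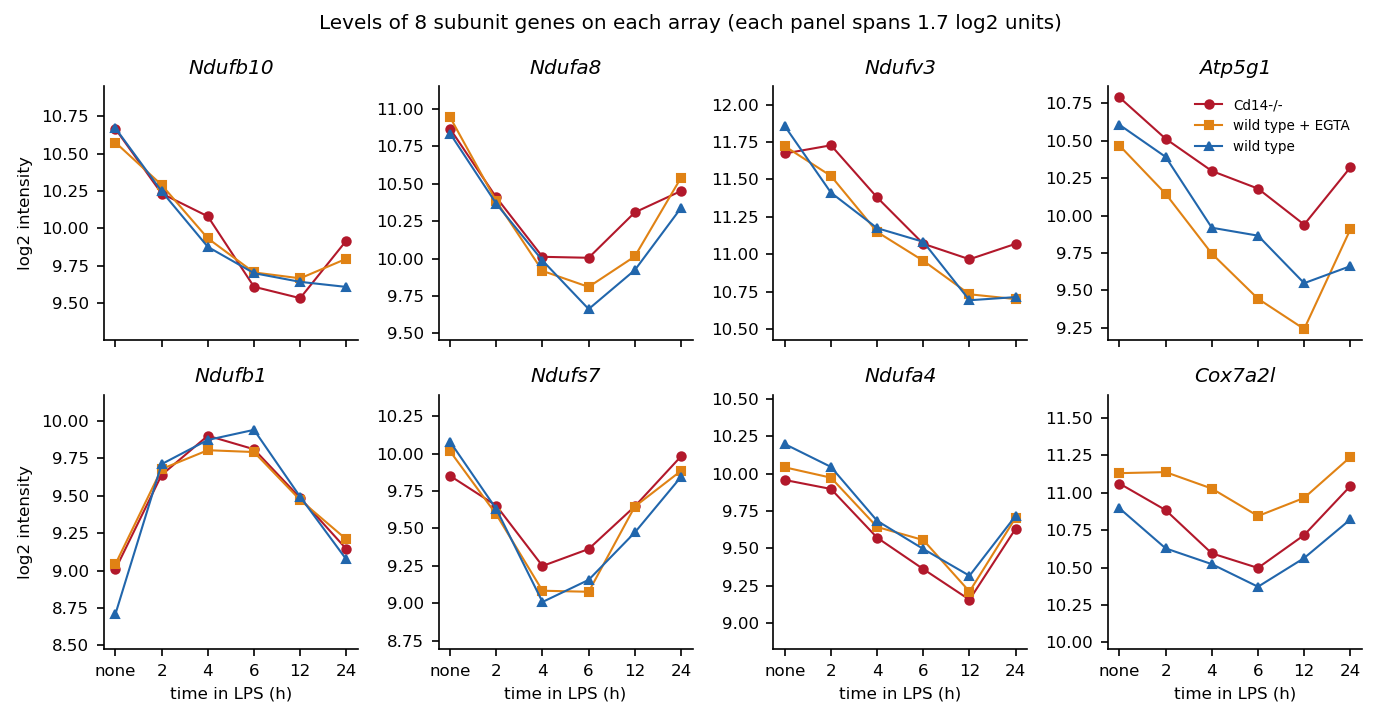
Log2 level (quantile scale) of 8 members on each array against hours of LPS in Cd14-/- (red circles), EGTA (orange squares) and wild type cells (blue triangles); each panel spans 1.7 log2 units. Ndufb10, Ndufa8, Ndufv3 and Atp5g1 are lower after LPS, Ndufb1 is higher with its top at 4 or 6 h, Ndufs7 is lowest at 4 or 6 h and near its unstimulated level at 24 h, and Cox7a2l is higher in EGTA cells than in wild type cells at every time.

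In complex III, which passes electrons from coenzyme Q to cytochrome c, 7 of 9 genes fell on the quantile scale with a median of -0.23, against 1 of 9 with median centring and 7 with no further scaling. Uqcr11, a small subunit, fell most. It was at 10.35, 10.29, 10.07, 9.89, 9.59 and 9.84 in Cd14-/- cells, at 10.34, 10.14, 9.90, 9.64, 9.46 and 9.71 in EGTA cells, and at 10.54, 10.23, 10.04, 9.94, 9.55 and 9.65 in wild type cells, a mean change of -0.55 ± 0.06 (adjusted p = 1.7e-06). Its lowest level was at 12 h in all 3 conditions. Uqcrq, the member nearest the median of the complex, changed by -0.23 on the quantile scale and by 0.05 with median centring. Uqcrh (-0.18, adjusted p = 0.1) and the Rieske iron-sulfur protein Uqcrfs1 (-0.11, adjusted p = 0.086) did not pass the test.

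In complex IV, cytochrome c oxidase, changes were small and most turned with the scaling. Of its 11 tested genes 10 fell and 1 rose on the quantile scale (median -0.24), against 4 higher and 1 lower with median centring and 9 lower with no further scaling. The constitutive isoforms are those most cells use, and their small falls turned to rises in value with median centring: Cox4i1 changed by -0.29 (0.07 with median centring), Cox6b1 by -0.20 (0.12), Cox8a by -0.25 (0.06), Cox6a1 by -0.13 (0.19) and Cox7a2 by -0.10 (0.26). Ndufa4 was the exception that fell under all 3 scalings. It was at 9.96, 9.90, 9.57, 9.36, 9.16 and 9.63 in Cd14-/- cells, at 10.04, 9.97, 9.64, 9.56, 9.21 and 9.71 in EGTA cells, and at 10.20, 10.04, 9.68, 9.50, 9.32 and 9.72 in wild type cells. Its lowest level was at 12 h in each condition, and the mean change was -0.47 ± 0.05 (adjusted p = 1.7e-06). The gene of its paralogue, known to replace Ndufa4 in inflamed cells, was not analysed here.

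The isoforms of complex IV that are restricted to other tissues were dim. Cox4i2, the subunit 4 isoform of lung, ranged from 5.23 to 6.52 over the 18 arrays, and the muscle isoforms Cox6a2, Cox7a1 and Cox8b ranged from 6.15 to 7.03, 5.50 to 6.92 and 4.23 to 5.93. None of these passed the filter, nor did Cox7c (5.41 to 6.56), a subunit of all cells whose probe sets were dim here, and no change is given for them. Cox6b2, the testis isoform of subunit 6b, also did not pass. It was nevertheless at 7.10, 6.83, 6.92, 6.70, 6.34 and 5.74 in Cd14-/- cells, at 5.73, 5.99, 5.81, 5.62, 5.56 and 4.72 in EGTA cells, and at 6.08, 5.81, 6.03, 6.01, 5.48 and 4.98 in wild type cells. At each of the 6 times the Cd14-/- array was the highest of the 3, a difference that was not tested. Cox8c, the testis isoform of subunit 8, passed the filter at levels of 7.37 to 8.07 and changed with LPS by 0.29 ± 0.10 (adjusted p = 0.027) on the quantile scale, but by -0.08 with no further scaling.

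In complex V, the ATP synthase, 16 of 17 genes fell on the quantile scale with a median of -0.32, against 2 higher and 2 lower with median centring and 16 lower with no further scaling. Of the 3 genes for subunit c, which forms the rotor ring and is the same mature protein from each, Atp5g1 and Atp5g2 fell by 0.68 ± 0.09 and 0.55 ± 0.05 (adjusted p = 6.1e-06 and 3.7e-07) and fell under all 3 scalings. Atp5g3 changed by -0.30 ± 0.07 on the quantile scale and by 0.05 with median centring. Atp5g1 was at 10.79, 10.51, 10.30, 10.18, 9.94 and 10.32 in Cd14-/- cells, at 10.47, 10.15, 9.75, 9.44, 9.24 and 9.91 in EGTA cells, and at 10.61, 10.39, 9.92, 9.87, 9.55 and 9.66 in wild type cells. It was lowest at 12 h in every condition. Of the catalytic head subunits, Atp5a1, nearest the median of the complex, changed by -0.32 ± 0.07 on the quantile scale (0.01 with median centring) and Atp5b by -0.12 ± 0.04. Atp5md, a small subunit at the dimer interface, changed by 0.07 (adjusted p = 0.52).

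**Figure D3:**
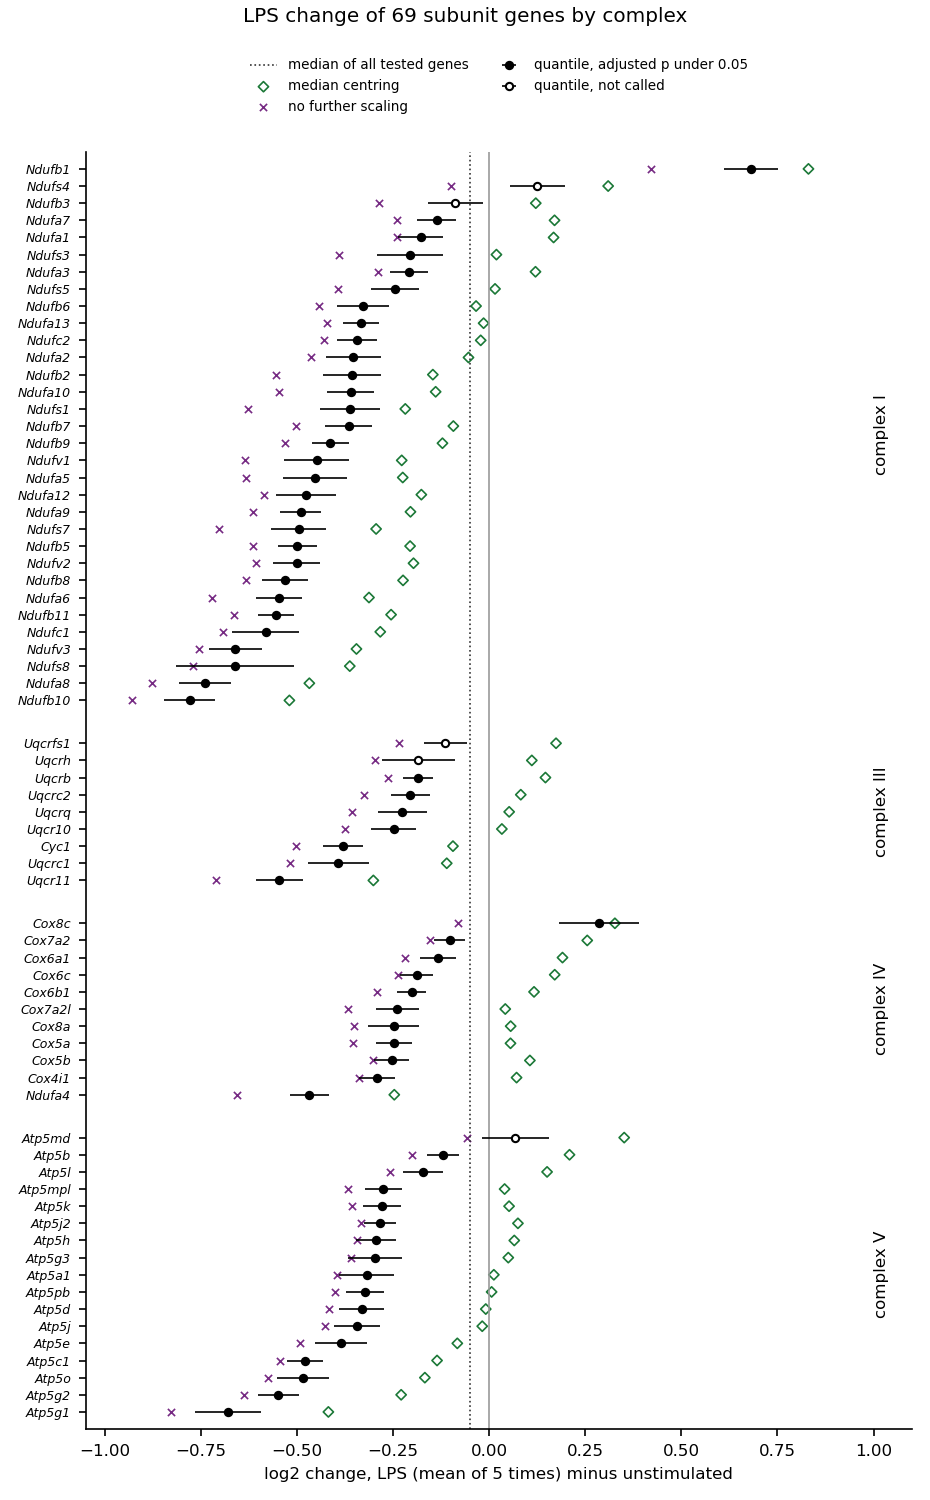
Mean log2 change with LPS (± SE on the quantile scale) of the 69 tested members by complex; filled points passed adjusted p under 0.05, diamonds give median centring, crosses no further scaling, and the dotted line the median of all tested genes. On the quantile scale 62 members fell and 2 rose, while with median centring 11 fell and 8 rose, and Ndufb1 stands on the far right under all 3 scalings.

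Under all 3 scalings 11 members passed the test as lower and Ndufb1 passed as higher. The 11 were Atp5g1, Atp5g2, Ndufa4, Ndufa6, Ndufa8, Ndufb10, Ndufb11, Ndufc1, Ndufs7, Ndufv3 and Uqcr11, a group named after its values were seen. A single probe set stood for 35 of the 75 members. Among the others, 35 members had further tested probe sets, and of these 54 probe sets 43 fell and 0 rose with LPS on the quantile scale, and 49 had the sign of the main one. Members whose course was most like the median course were Ndufb5 (Pearson r = 0.95), Atp5j2 (0.95) and Ndufb10 (0.94), and the least like were Ndufb1 (-0.58), Cox8c (-0.57), Ndufs4 (-0.46) and Atp5md (-0.21), over 18 arrays that the median itself is taken from.

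By time, on the quantile scale, members fell more often than genes at large from 4 h on. At 2 h 21 members fell and 1 rose, where 25% of all genes fell and 16.4% rose. At 4 h the members' counts were 57 and 1 (all genes 35.2% and 25.6%), at 6 h 62 and 2 (33.9% and 26.1%), at 12 h 59 and 1 (29.5% and 27.1%) and at 24 h 45 and 5 (25.8% and 26.5%). With median centring 5 members fell and 13 rose at 4 h (all genes 22.5% lower and 33.2% higher), fewer falls than among genes at large, and 21, 20 and 19 fell at 6, 12 and 24 h (all genes 22.5%, 19.6% and 18.2%). The falls at 2 h turned with the scaling, since with median centring 0 fell and 23 rose, and with a single unstimulated array: 37 fell without the Cd14-/- one and 10 without the wild type one. At 12 h, where the fall was deepest, 20 members passed as lower and 1 as higher under all 3 scalings. The falls were largest for Atp5g1 (-1.04 ± 0.11, 2.06-fold lower), Ndufb10 (-1.02 ± 0.09), Ndufv3 (-0.95 ± 0.09), Uqcr11 (-0.87 ± 0.08) and Ndufa4 (-0.84 ± 0.07), and Ndufb1 was higher by 0.56 ± 0.09 (adjusted p from 6.2e-08 to 7.4e-05).

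At 24 h, the time matched to the unstimulated cells since plating, 19 members passed as lower under all 3 scalings and 0 as higher. Complex I holds 32 of the 69 tested members. From it, the largest falls on the quantile scale were those of Ndufv3 (-0.92 ± 0.09), Ndufb10 (-0.86 ± 0.09), Ndufs8 (-0.84 ± 0.20), Ndufb11 (-0.69 ± 0.06) and Ndufb8 (-0.60). Ndufs8 changed by -0.84 in Cd14-/-, -0.10 in EGTA and -1.58 in wild type cells. Large falls in the other complexes were those of Uqcr11 (-0.68), Atp5g1 (-0.66) and Atp5e (-0.61), the epsilon subunit of the central stalk of the ATP synthase. By complex, 23 of 32 genes fell in complex I, 4 of 9 in complex III, 6 of 11 in complex IV and 12 of 17 in complex V on the quantile scale. The 5 members that rose were Cox8c (0.39), Atp5md (0.38), Ndufs4 (0.25), Ndufb1 (0.22) and Cox7a2 (0.17), and 0 of them passed with no further scaling. Without the unstimulated Cd14-/- array 2 members rose. At this time the median of the granulocyte markers had changed by -2.08, with 8 of 9 lower. The mean level of that list at 24 h and without LPS was 9.57 and 10.85 in Cd14-/- cells, 8.60 and 10.71 in EGTA cells and 8.88 and 10.73 in wild type cells, and its part in the fall of the members was not tested.

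**Figure D4:**
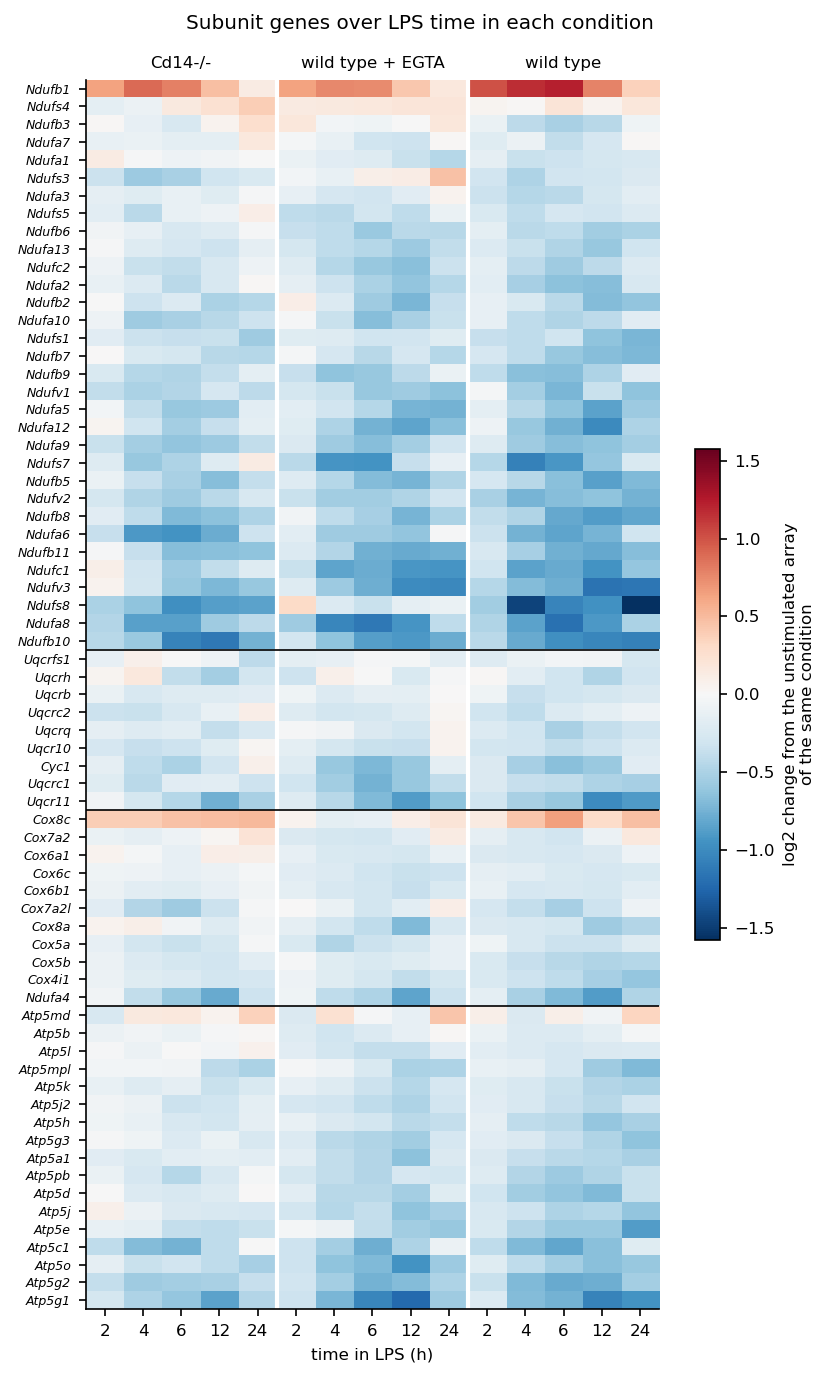
Log2 change from the unstimulated array of the same condition (quantile scale) for each of the 69 tested members, in rows by complex, at 2, 4, 6, 12 and 24 h in Cd14-/-, EGTA and wild type cells. Most rows are lower from 4 h on in all 3 conditions on this scale, and Ndufb1 is higher at every time.

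Comparing late LPS arrays (12 and 24 h) with early ones (2, 4 and 6 h) leaves out the unstimulated arrays. It parted the members on the quantile scale, while under the other scalings most members that passed fell. On the quantile scale 25 fell further and 15 rose back (limma, all genes 24% lower and 33% higher), with a median of -0.05 against 0.05 for all genes. With median centring 47 fell and 2 rose, and with no further scaling 25 fell and 4 rose. The count of falls was 13 without the 2 h arrays and 14 without the 12 h arrays, and that of rises 2 without the 24 h arrays and 8 without the 4 h arrays. Under all 3 scalings 21 members passed as lower and 2 as higher. The 2 were Ndufs7, a core iron-sulfur subunit of complex I (0.43 ± 0.05, adjusted p = 9.5e-06), and Atp5c1, the gamma subunit that turns inside the ATP synthase (0.29 ± 0.04, adjusted p = 5.4e-05).

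Ndufs7 had the largest late rise. It was at 9.85, 9.65, 9.25, 9.36, 9.65 and 9.98 in Cd14-/- cells, at 10.01, 9.59, 9.08, 9.08, 9.65 and 9.88 in EGTA cells, and at 10.08, 9.63, 9.01, 9.16, 9.47 and 9.84 in wild type cells, so that at 24 h it differed from the unstimulated level by 0.13, -0.13 and -0.23. Rises on the quantile scale that did not hold under all scalings were those of Cox7a2 (0.25), the complex III core protein Uqcrc2 (0.23), Ndufb9 (0.22), Ndufs3 (0.20), Ndufa8 (0.20) and Cox7a2l (0.17). The largest late falls were those of Ndufb1 (-0.48 ± 0.05), whose early rise ran off, Ndufv3 (-0.46 ± 0.05), Atp5mpl (-0.41 ± 0.04), a small subunit of the ATP synthase membrane part, Uqcr11 (-0.38 ± 0.05), Ndufb2 (-0.33 ± 0.06) and Atp5e (-0.29 ± 0.05). Of the granulocyte markers 8 of 9 were also lower late than early (median -1.18), and their part in these falls was not tested.

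In Cd14-/- cells under LPS a set of subunit genes was slightly higher than in wild type cells on the quantile scale. Averaged over the 5 times, 26 of 69 members were higher and 1 lower (limma, adjusted p under 0.05), where 17.1% of all genes were higher and 12.6% lower, with a median difference of 0.13 against 0.04 for all genes. They were 12 of complex I, 3 of complex III, 3 of complex IV and 8 of complex V. With median centring 6 members were higher and 3 lower, and with no further scaling 0 were higher and 1 lower, so the direction of the group turned with the scaling. Without the 6 h arrays 16 members were higher, and without the 12 h arrays 17. Set against the median of all genes, 55 of 69 members lay above it on the quantile scale and 43 of 69 under the other scalings, which share this count by construction. By time the members' median difference on the quantile scale was -0.03 without LPS and 0.07, 0.09, 0.10, 0.15 and 0.17 at 2 to 24 h.

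Cox4i1, the constitutive subunit 4 of complex IV, had the smallest p-value. It was at 12.64, 12.55, 12.44, 12.43, 12.35 and 12.37 from 0 to 24 h in Cd14-/- cells, against 12.55, 12.31, 12.23, 12.15, 12.03 and 11.94 in wild type cells. The Cd14-/- level was higher at every time, and the LPS arrays of Cd14-/- and wild type cells did not overlap. The mean difference of Cox4i1 was 0.30 ± 0.04 (adjusted p = 0.00033, higher at 5 of 5 times) on the quantile scale, 0.20 with median centring and 0.14 with no further scaling, where it did not pass (adjusted p = 0.16). Atp5h, the d subunit of the peripheral stalk of the ATP synthase, was likewise higher by 0.29 ± 0.05 (adjusted p = 0.00071), and Atp5g1 by 0.37 ± 0.09 (adjusted p = 0.0062). Ndufs8 (0.37 ± 0.12), Atp5g2 (0.28 ± 0.05), Ndufb7 (0.28 ± 0.06), Ndufb6 (0.27 ± 0.06) and Uqcrc1 (0.26 ± 0.08) were also higher at 5 of 5 times, and none of these passed with no further scaling. The difference of Ndufs8 was uneven, at 0.84 and 0.75 at 4 and 24 h and 0.06 to 0.09 at the other LPS times. EGTA cells were above wild type cells by 0.56 and 0.79 at 4 and 24 h for the same gene.

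Atp5md was the member that was lower in Cd14-/- cells and passed under all 3 scalings. It was at 10.78, 10.53, 10.94, 10.95, 10.83 and 11.14 in Cd14-/- cells, against 11.11, 11.20, 10.89, 11.21, 11.06 and 11.45 in wild type cells. It was lower at 4 of 5 LPS times and without LPS, and just above wild type at 4 h, and the LPS arrays overlapped. The mean difference of Atp5md was -0.28 ± 0.09 (adjusted p = 0.036), and it was -0.40 with median centring and -0.47 with no further scaling. It no longer passed without any 1 of the 5 Cd14-/- LPS arrays, or without the wild type array of 2, 6, 12 or 24 h. Marker genes of other cells moved in the same comparison. Of the macrophage markers 7 of 9 were lower and 1 higher in Cd14-/- cells (median -0.78) and of the granulocyte markers 5 were higher and 1 lower (median 0.55). The mean level of the macrophage list under LPS ran from 9.92 to 10.76 in Cd14-/- cells and from 10.61 to 11.05 in wild type cells, and that of the granulocyte list from 9.57 to 10.84 in Cd14-/- cells and from 8.88 to 10.53 in wild type cells. Their part in the differences of the members was not tested.

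Few subunit genes differed between EGTA and wild type cells under LPS. Of 69 members 3 were higher and 0 lower (limma, adjusted p under 0.05; 11 at an unadjusted p under 0.05), where 7.39% of all genes were higher and 6.22% lower, and the median difference was -0.00 against 0.01 for all genes. The 3 were Cox7a2l, Atp5pb (0.16 ± 0.05), the b subunit of the peripheral stalk, and Cox4i1 (0.14 ± 0.04). Neither of the last 2 passed with median centring or with no further scaling, nor without the arrays of 4, 6, 12 or 24 h. Of the macrophage markers 3 of 9 were higher with EGTA and 0 lower, and their part in these differences was not tested.

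Cox7a2l had the largest difference. Its protein, also called SCAF1, ties complex III to complex IV in supercomplexes, and C57BL/6 mice are known to carry a shortened form of it that does so poorly. It was at 11.13, 11.14, 11.03, 10.84, 10.97 and 11.24 in EGTA cells, against 10.90, 10.63, 10.52, 10.37, 10.56 and 10.82 in wild type cells. Each EGTA array was above the wild type array of its time, and the lowest EGTA level under LPS was above the highest wild type level under LPS. The mean difference of Cox7a2l was 0.46 ± 0.05 (adjusted p = 0.00011, higher at 5 of 5 times), a 1.38-fold higher level, and it was 0.45 with median centring and 0.53 with no further scaling. Its other probe sets, which may share probes with the main one, gave 0.52 and 0.47. In Cd14-/- cells Cox7a2l was at 11.06, 10.88, 10.59, 10.50, 10.72 and 11.04, between the other conditions at every LPS time. With LPS Cox7a2l changed by -0.24 ± 0.05 on the quantile scale and by 0.04 with median centring.

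The direct comparison of Cd14-/- with EGTA cells, which shares arrays with both others, gave 27 members higher and 3 lower on the quantile scale (all genes 16.8% and 14.4%), 7 higher and 4 lower with median centring, and 1 higher and 6 lower with no further scaling. Without the 6 h or the 12 h arrays 14 were higher and 1 lower. In the same comparison 6 of 9 macrophage markers were lower and 1 higher (median -0.997), and 5 of 9 granulocyte markers were higher and 1 lower (median 0.52). The mean level of the macrophage list under LPS ran from 9.92 to 10.76 in Cd14-/- cells and from 11.07 to 11.24 in EGTA cells, that of the granulocyte list from 9.57 to 10.84 in Cd14-/- cells and from 8.60 to 10.71 in EGTA cells, and their part in these differences was not tested. Those that passed under all 3 scalings were Atp5g1, higher in Cd14-/- cells by 0.55 ± 0.09, and Cox7a2l (-0.30 ± 0.05), Atp5md (-0.27 ± 0.09) and Ndufs3 (-0.20 ± 0.07), which were lower. Atp5g1 was higher in Cd14-/- than in EGTA cells at all 6 times, by the levels given above, also without LPS. Its difference between EGTA and wild type cells (-0.18) did not pass.

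**Figure D5:**
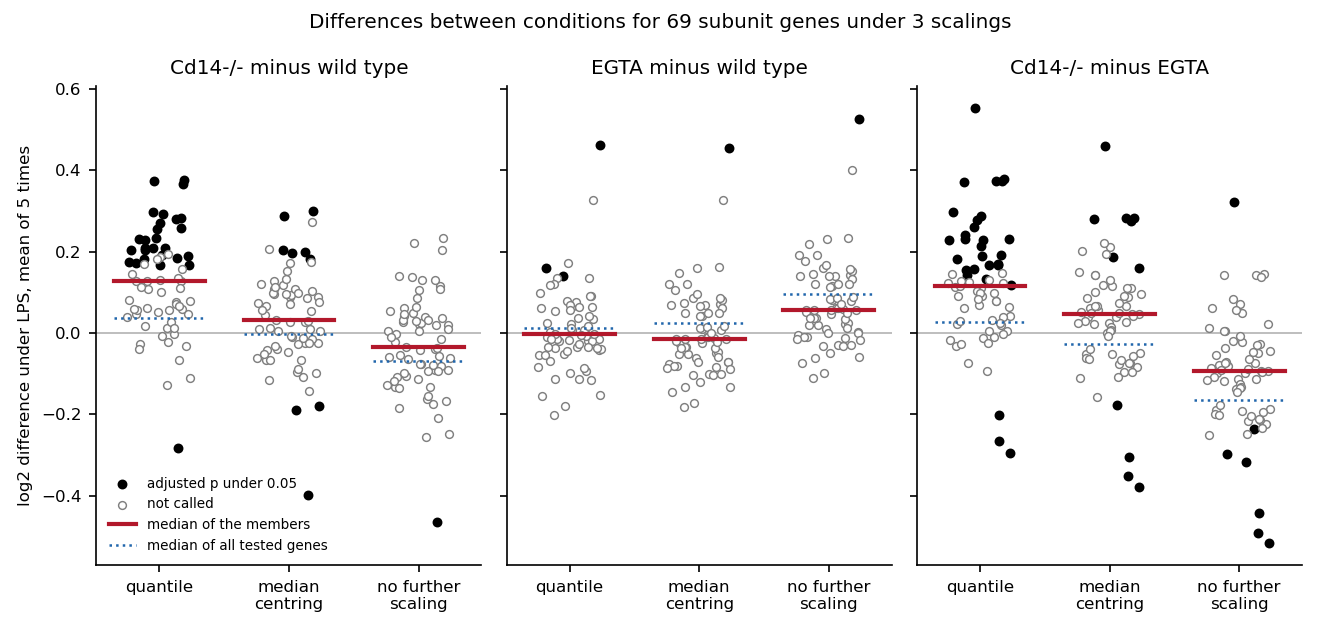
Mean log2 difference under LPS of the 69 tested members for Cd14-/- minus wild type, EGTA minus wild type and Cd14-/- minus EGTA cells, each under 3 scalings. The member median of the Cd14-/- minus wild type difference is 0.13 on the quantile scale, 0.03 with median centring and -0.04 with no further scaling, and Cox7a2l stands apart in the EGTA minus wild type difference under all 3.

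Whether the LPS response of the members itself differed between conditions was tested by interaction terms, and 0 members passed in any of 4. For the LPS change of Cd14-/- minus that of wild type cells limma called 0 of 69 members, with 9 at an unadjusted p under 0.05, and 0.156% of all genes. For EGTA minus wild type it called 0 of 69, with 5 at an unadjusted p under 0.05, and 1.66% of all genes. With median centring 22 members were higher for EGTA minus wild type, which rests on the unstimulated EGTA array that stood apart. For late minus early LPS it called 0 members in Cd14-/- cells (4 at an unadjusted p under 0.05, 0.0433% of all genes) and 0 with EGTA (3, and 0% of all genes). These fits have few residual degrees of freedom, and a missed threshold does not show that the responses were alike.

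Genes that work beside the subunits did not all take their course. The 4 subunits of complex II, which oxidises succinate, fell with LPS on the quantile scale: Sdhb by 0.47 ± 0.07, Sdhd by 0.39 ± 0.06, Sdhc by 0.34 ± 0.08 and Sdha by 0.32 ± 0.05. With median centring 0 of 4 passed, and with no further scaling 4 of 4 fell. Of the assembly factors of complexes III, IV and V, 5 of 17 were higher and 5 lower, near the 27.3% and 34.7% of all genes (6 and 1 with median centring, 3 and 11 with no further scaling). Those with the smallest p were Tmem70 (1.14 ± 0.11), which helps build the ATP synthase, the copper carrier Cox17 (0.57 ± 0.06), Ttc19 (0.75 ± 0.11) and the complex III factor Uqcc2 (-0.54 ± 0.08). Without LPS Ttc19 lay below the array median in wild type (6.76), EGTA (6.49) and Cd14-/- cells (6.55). It passed the filter through LPS arrays alone, so the filter favoured its rise. Of 9 complex I assembly factors 2 rose and 1 fell, namely Acad9 (0.59 ± 0.08), Timmdc1 (0.31 ± 0.12, but -0.10 with no further scaling) and Ndufaf7 (-0.63 ± 0.18), against 3 and 1 with median centring and 0 and 6 with no further scaling. Without LPS Timmdc1 lay above the array median in wild type cells alone (7.13), so the filter favoured its rise too. Late against early, 7 of these 17 assembly factors and 3 of these 9 rose and 0 fell, with 7 and 4 under either other scaling, where 33% of all genes rose on the quantile scale. Among them were Coa3 (0.70 ± 0.05), Uqcc1 (0.69 ± 0.10), Ndufaf3 (0.42 ± 0.05) and Ndufaf4 (0.43 ± 0.10).

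Of the 9 tested electron carriers and coenzyme Q genes 2 rose and 2 fell with LPS on the quantile scale, where 27.3% of all genes rose and 34.7% fell. Cytochrome c itself, Cycs, rose by 0.31 ± 0.06 while its partner in complex III, Cyc1, fell by 0.38 ± 0.05 on the quantile scale. The fall of Cyc1 did not pass with median centring. All changes in this paragraph are those of the quantile scale. Against the same wild type arrays under LPS, Cycs was lower in Cd14-/- cells than in wild type cells (-0.30 ± 0.05, adjusted p = 0.0011) and lower with EGTA (-0.30 ± 0.05, adjusted p = 0.003). Of the electron-transfer flavoproteins, which pass electrons from fatty acid oxidation to coenzyme Q, Etfb fell by 0.87 ± 0.07 and Etfa by 0.39 ± 0.07 with LPS, and both were higher in Cd14-/- than in wild type cells (0.37 ± 0.07 and 0.30 ± 0.07). The coenzyme Q methyltransferase Coq3 rose by 0.66 ± 0.14.

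Of 12 biogenesis regulators, among them the factors known to drive the subunit genes, 3 rose and 4 fell with LPS, near the shares of all genes given above (4 and 4 with median centring, 1 and 5 with no further scaling). The DNA-binding subunit of GABP, Gabpa, fell by 0.47 ± 0.06 while its partner Gabpb1 rose by 0.84 ± 0.13, Myc fell by 1.68 ± 0.19 and the mitochondrial transcription factor Tfb2m fell by 0.90 ± 0.10. In Cd14-/- against wild type cells Gabpa was higher (0.34 ± 0.06) and Gabpb1 lower (-0.31 ± 0.09). With EGTA Ppargc1b (1.11 ± 0.33) and Tfam (0.33 ± 0.07) were higher and Gabpb1 lower (-0.44 ± 0.09). Among the LPS arrays Ppargc1b lay above the array median only with EGTA at 12 and 24 h (7.34 and 7.67). It thus passed the filter only through the condition in which it was high, and its difference is no independent result. Of 10 respiration-linked genes known to respond to LPS or low oxygen, 4 rose and 6 fell on the quantile scale, where 27.3% of all genes rose and 34.7% fell. The rises were led by Acod1 (5.54 ± 0.18), which makes itaconate, and the mitochondrial superoxide dismutase Sod2 (2.34 ± 0.06). The nitric oxide synthase Nos2 was lower under LPS in Cd14-/- cells than in wild type cells (-2.53 ± 0.35, adjusted p = 0.00028) and lower with EGTA (-1.80 ± 0.35, adjusted p = 0.0058).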

How the data were processed

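The authors deposited 22690 probe set intensities for each of 18 arrays on a linear scale, made with MAS5 per the submitters' processing notes. Neither its version nor its scaling target is given in the sources used here. MAS5 summarises each array by itself, and the deposited median intensities differed between arrays, so values were quantile-normalised and taken as log2(value + 16), which understates changes of dim genes. Probe sets were named through the annotation of the array: 20393 had 1 gene, 691 several and 1606 none, and only the first were used, which left out 7 probe sets that named a gene fitting the rule beside another gene. Members had 141 probe sets, and the one with the highest mean stood for its gene.

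Genes above the median of their array on at least 2 fitted arrays were tested over the whole table with limma 3.58.1 in R 4.3.3 (lmFit, eBayes with an intensity trend), with Benjamini-Hochberg adjustment at 0.05. Conditions were compared over the 15 LPS arrays with time as a block (6929 genes, 8 residual degrees of freedom), so the 5 times stood in for replicates. The number of arrays limits the precision. LPS was compared with no LPS over 18 arrays with condition as a block (7056 genes, 10 residual degrees of freedom), so the 3 conditions stood in for replicates. Differences in response were interaction terms. Errors are standard errors of the fit. The fits alone were tried on simulated data with independent noise, without the scaling between arrays or the filter. They recovered 36% of 1.25-fold changes for the mean LPS change and 34% for Cd14-/- minus wild type.

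The members and lists were chosen with earlier results of these data known. Named members were up to 8 rises and 8 falls per comparison among called members whose sign was shared by all times or all conditions, Ndufa4, the isoform genes of complex IV and of subunit c, the member nearest the median of its complex, and the 3 most like the members' median; other lists gave up to 4 genes with the smallest p. Alternatives were other scalings, offsets, filters, probe set rules, error models and left-out arrays. Promoters came from RefSeq (GRCm38.p6).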

Additional observations from a re-analysis of the deposited data

How the results depend on the processing

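Limits: with 1 array per condition and time, a difference between conditions or times cannot be told apart from a difference between single arrays, and no absolute scale ties the arrays together. No paired analysis was possible because the labels give each condition and time a single array, so that groups share no second replicate number; time or condition was the block in every fit. Of 4667 values of named members over 35 settings, 4252 kept their side of the threshold, 351 fell short of it and 37 newly passed. A further 27 changed sign and had passed in the main fit or in the alternative. Sign changes of values that passed in neither are not counted apart from the 4252.

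Counts of members called higher and lower moved with the scaling. With median centring they were 6 and 3 for Cd14-/- minus wild type, 1 higher for EGTA minus wild type, 7 higher for Cd14-/- minus EGTA, 2 and 47 for late minus early, 8 and 11 for the mean LPS change, 23 and 0 for the 2 h change, 13 and 5 for that at 4 h, 5 and 21 for 6 h, 3 and 20 for 12 h, 19 lower for 24 h, and 22 higher for the LPS change with EGTA. With no further scaling they were 0 higher, 1 higher, and 1 and 6 for the 3 condition comparisons, 4 higher for late minus early, 1 higher for the mean LPS change, 13 lower at 2 h, 1 higher at 6 h and 0 higher at 24 h. Median centring without the unstimulated EGTA array, an alternative chosen after seeing the data, gave 29 lower for the mean LPS change, 10 and 0 for 2 h, 5 and 19 for 4 h, 33 lower for 6 h, 2 and 39 for 12 h, and 3 higher for 24 h.

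Without the 2 h arrays Cd14-/- minus wild type had 0 lower, late minus early 13 lower and 6 h 1 higher. Without the 4 h arrays EGTA minus wild type had 1 higher, Cd14-/- minus EGTA 1 lower, late minus early 8 higher and 6 h 1 higher. Without the 6 h arrays Cd14-/- minus wild type had 16 and 0, EGTA minus wild type 1 higher and Cd14-/- minus EGTA 14 and 1. Without the 12 h arrays these were 17 and 0, 1 higher, and 14 and 1, with late minus early 14 lower and 6 h 1 higher. Without the 24 h arrays they were 0 lower, 1 and 1, and 1 lower, with late minus early 2 higher and the mean LPS change and 6 h 1 higher each. Without the EGTA arrays at 12 and 24 h, EGTA minus wild type had 1 higher, Cd14-/- minus EGTA 1 lower, the mean LPS change and 6 h 1 higher each and 24 h 3 higher. Without the unstimulated EGTA array 4 and 12 h had 2 higher each. With wild type and Cd14-/- arrays alone 2 h had 9 lower, and 4, 12 and 24 h had 2 higher each. With no filter and with no intensity trend Cd14-/- minus wild type had 0 lower and EGTA minus wild type 1 higher, with 1 higher at 6 h in the first and 13 lower at 2 h in the second. The mean of probe sets gave 1 and 1 for EGTA minus wild type, 2 higher at 12 h and 1 higher for the LPS change with EGTA. An offset of 64 gave 1 higher at 6 h. An offset of 1 and the stricter filter moved none of these counts by over 1.5 times.

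Leaving out each array in turn gave 19 to 29 higher and 0 to 1 lower for Cd14-/- minus wild type, 1 to 3 higher and 0 to 1 lower for EGTA minus wild type, 18 to 30 and 1 to 3 for Cd14-/- minus EGTA, 11 to 16 and 20 to 26 for late minus early, and 1 to 2 and 53 to 63 for the mean LPS change. It gave 10 to 37 lower at 2 h (fewest without the unstimulated wild type array, most without the unstimulated Cd14-/- one), 1 to 2 higher at 4, 6 and 12 h and 2 to 5 higher at 24 h.

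Sign changes of named members are given where the value passed in the main fit or in the alternative. With median centring they were, in the mean LPS change, Uqcrq (0.052), Cox7a2l (0.042), Atp5a1 (0.012), Cox4i1 (0.071), Cox6a1 (0.19), Cox6b1 (0.12), Cox7a2 (0.26), Cox8a (0.056), Atp5g3 (0.050) and Atp5j2 (0.075), and in late minus early Cox6a1 (-0.16). Without the unstimulated EGTA array this left Cox6a1 (0.13), Cox6b1 (0.043), Cox7a2 (0.18) and Atp5j2 (0.0016). With no further scaling they were Cox8c (-0.082) in the mean LPS change, Ndufs4 (-0.041), Ndufb1 (-0.084) and Cox7a2 (-0.020) at 24 h, and Atp5k (-0.023), Cox4i1 (-0.021), Cox6b1 (-0.038), Cox7a2 (-0.044) and Atp5g2 (-0.028) in Cd14-/- minus EGTA. With the mean of probe sets they were Uqcrq (0.054) in the mean LPS change, Ndufs4 (-0.0012) at 24 h and Atp5g2 (-0.0053) in Cd14-/- minus EGTA. The cause of these changes was not tested.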
